A study of Mus musculus with 8 samples.

Results

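Granzymes, perforin and the other proteins of the cytotoxic granule were followed in regulatory T (Treg) cells with and without the calcium sensors STIM1 and STIM2, before and after stimulation through the T cell receptor. The genes were chosen by symbol and not by their values, and all 8 of them (Gzma, Gzmb, Prf1, Srgn, Ctsw, Nkg7, Stx11 and Fgl2) were found among the 52459 genes of the deposited table. RNA was sequenced in 8 libraries of C57BL/6 mouse Treg cells, 2 for each of 4 groups: WT unstimulated, DKO unstimulated, WT stimulated and DKO stimulated. The stimulated cells received plate-bound antibodies to CD3 and CD28 at 1 µg/ml for 16 h. DKO stands for the labels' genotype with floxed Stim1 and Stim2 alleles and Foxp3-YFPcre, in which Cre and YFP are made from the X-linked Foxp3 promoter. Per the study's methods, cells were sorted as CD4+CD25hi from spleen and lymph nodes of pooled, healthy, heterozygous female mice, in which one X chromosome is silenced per cell, with YFP+ cells as DKO and YFP- cells as WT. WT cells therefore also carried floxed alleles but did not express Cre. The mice's age was not given in the sources used here. The methods describe a pool of mice for each sample, but the labels do not say whether the 2 libraries of a group came from separate pools. The p-values therefore measure the spread between these libraries only. The labels give all unstimulated libraries one lane number and all stimulated libraries another, so stimulation and lane cannot be told apart.

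Cytotoxic lymphocytes kill by releasing granules: perforin forms pores in the target cell membrane, and granzymes, which are serine proteases, enter and trigger death. Inside the granule these proteins are held by the proteoglycan serglycin, and release needs a chain of docking and fusion proteins that includes syntaxin 11. Treg cells also use granzyme B and perforin as one of several means of suppression, and FGL2 is a protein secreted by Treg cells that dampens dendritic cells. STIM1 and STIM2 sense the filling of the endoplasmic reticulum with calcium and open calcium channels of the plasma membrane, which activates the transcription factor NFAT.

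Levels are given as normalized counts, that is, reads per gene divided by 1 size factor per library. The libraries held 11851853 to 16306540 reads in genes, and 1 read was worth 0.759 to 1.48 normalized counts. The total of normalized counts was 12113314 to 12497477 in stimulated and 15559047 to 17597278 in unstimulated libraries. All 8 genes had a mean of at least 10 normalized counts and were among the 15419 genes tested. A gene was called when limma, on log2(normalized count + 1), gave a Benjamini-Hochberg adjusted p under 0.05 and more than a 1.5-fold change. Stim1 and Stim2 themselves were not lower in the libraries labelled DKO: in unstimulated cells Stim1 read 1139 and 1377 normalized counts in WT and 1538 and 1868 in DKO, and Stim2 read 906 and 908 against 904 and 744. The counts are per gene and cannot show the loss of single exons, so these values do not check the labels, and DKO below means the libraries labelled so. The Treg marker Foxp3 read 4258 to 11918 normalized counts in every library. Transcripts of macrophages stood out in DKO unstimulated cells, where a list of 14 markers summed to 11901 in replicate 1 and 1910 in replicate 2, against 528 and 517 in WT. A list of natural killer (NK) cell markers, of which 12 of 13 were found in the table, summed to 1709 and 280 in the same DKO libraries and to 175 and 241 in WT. In bulk RNA, fewer cells of a type and less RNA per cell cannot be told apart.

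By symbol, RefSeq's annotation of GRCm38.p6 places Gzma at chr13:113093824-113100981, Gzmb at chr14:56258836-56262334, Ctsw at chr19:5465043-5468628, Nkg7 at chr7:43437138-43438246 and Fgl2 at chr5:21372673-21378386. The other 3 genes lie on chromosome 10, with Stx11 at chr10:12938217-12964498, Prf1 at chr10:61297751-61304684 and Srgn at chr10:62493833-62527445.

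The 8 genes differed widely in abundance. Per kilobase of exon, Srgn led in WT unstimulated cells with 3153 normalized counts, Gzmb followed with 939 and Stx11 with 788. Ctsw, at 264, Nkg7, at 145, and Fgl2, at 122, were intermediate, and Gzma, at 55.7, and Prf1, at 10.6, were lowest. The 2 Gzmb libraries lay on either side of Stx11, so the order of this pair was within the replicate spread. The percentiles among all genes above 0 were taken on mean normalized counts not divided by exon length. By that measure Srgn was at the percentile 98.9 in this group, Stx11 at 93.8, Gzmb at 91.4 and Prf1 at 49.9. In DKO unstimulated cells the order changed: Srgn still led with 1596 per kilobase, Ctsw, at 396, and Gzma, at 240, came next, and Gzmb, at 95.6, and Stx11, at 69.4, were close to Nkg7, at 97.7. Nkg7 and Gzma differed so much between these 2 libraries that their places in this order were within the replicate spread.

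**Figure D1:**
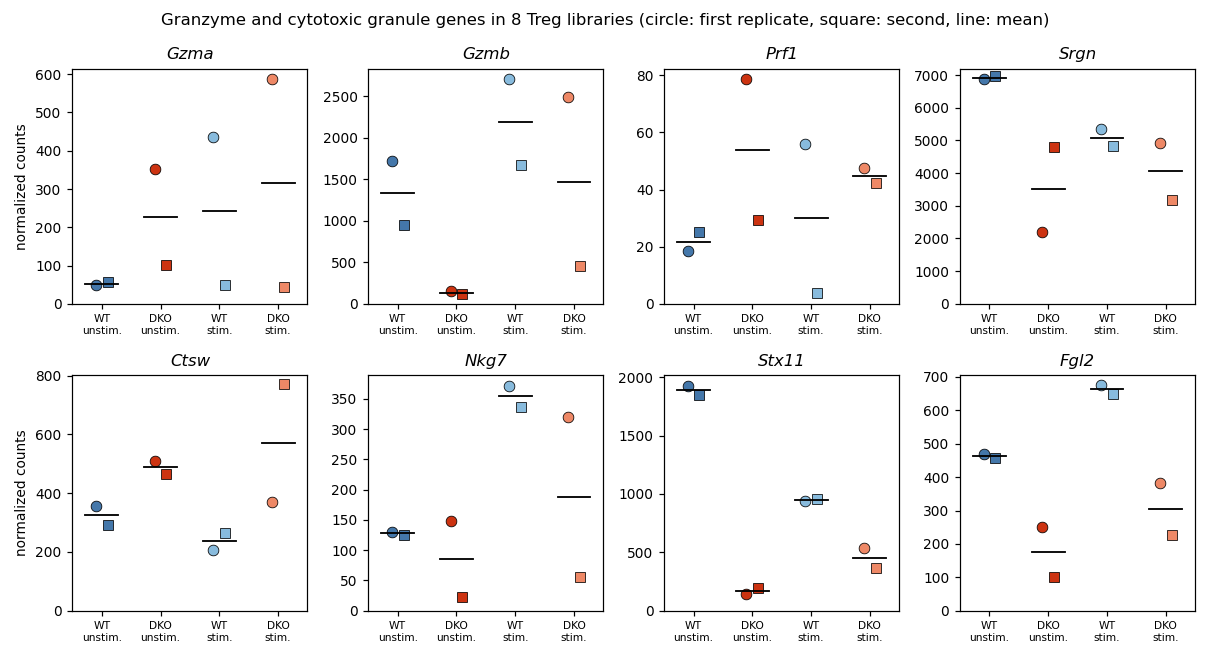
Normalized counts (y axis, linear, from 0) of the 8 genes in the 4 groups (x axis), with 1 point per library and a line at the group mean. Stx11 and Gzmb were low in both DKO unstimulated libraries, while Gzma split within 3 of the 4 groups, with values of 351 and 100, 435 and 47.8, and 588 and 43.9.

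In unstimulated cells, 2 of the 8 genes were called lower in DKO, namely Stx11 and Gzmb, and none was called higher. Among all tested genes, limma called 3.35% lower and 1.38% higher in this comparison. Without adjustment, limma p was under 0.05 for 4 genes that were lower (Fgl2 and Srgn in addition) and for 0 that were higher. The share of all tested genes under this unadjusted threshold was not counted, so these counts are not read as a result about the 8 genes. The genes' median log2 fold change was -1.1, against -0.01 over all 15419 tested genes. The same 2 genes were called by edgeR, which called 2.29% of all genes lower and 0.85% higher, while DESeq2 called Fgl2 and Srgn lower as well, with 5.25% of all genes lower and 3.31% higher. Both DKO libraries were below both WT libraries for 4 genes (27.1% of all tested genes) and above for 3 (26.5%).

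Gzmb encodes granzyme B, the granzyme that cleaves caspases and is the best known of the family in Treg cells. It read 1714 and 950 normalized counts in the WT unstimulated libraries and 156 and 115 in the DKO unstimulated libraries. All DKO values lay far below all WT values, although the WT values themselves differed. The log2 fold change was -3.24 ± 0.63 (SE, n = 2 per group), that is 9.46-fold lower, with an adjusted p of 0.0234 (limma). The call was close to the threshold: the adjusted p was 0.0508 when every gene above 0 was tested, 0.278 without WT unstimulated replicate 3, 0.0861 without WT unstimulated replicate 4, 0.0521 without DKO unstimulated replicate 2, and 0.051 and 0.0536 without WT stimulated replicate 1 or 2, with log2 fold changes from -3.67 to -2.82. Without DKO unstimulated replicate 1, which held the most macrophage and NK transcripts, the log2 fold change was -3.46 with an adjusted p of 0.0429 (limma).

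Gzma encodes granzyme A, a tryptase of cytotoxic T and NK cells. It read 48.6 and 56.1 normalized counts in WT unstimulated cells and 351 and 100 in DKO unstimulated cells. Both DKO values were higher than both WT values, but they differed from each other more than the lower one differed from WT. The log2 fold change of 1.83 ± 1.19 (SE, n = 2 per group) was not called (limma, adjusted p = 0.405), and it was 0.93 without DKO unstimulated replicate 1. Prf1, which encodes perforin, read 18.4 and 25.1 in WT and 78.6 and 29.4 in DKO, from 17 to 75 reads per library. Its log2 fold change of 1.13 ± 0.97 was not called either (limma, adjusted p = 0.539). The split of Gzma between replicates recurred after stimulation, with 435 and 47.8 in WT and 588 and 43.9 in DKO.

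Gzma went with the NK cell markers across libraries. The 3 libraries with the most Gzma were also the 3 with the largest summed NK cell markers, at 1709 in DKO unstimulated replicate 1, 809 in DKO stimulated replicate 1 and 581 in WT stimulated replicate 1. In that order Gzma read 351, 588 and 435, so the largest NK cell sum went with the lowest Gzma of these 3. The other 5 libraries had 43.9 to 100 normalized counts of Gzma and 106 to 280 of NK cell markers. Replicate 1 was above replicate 2 for 12 of 12 NK cell markers in DKO unstimulated, 11 of 12 in WT stimulated and 11 of 12 in DKO stimulated cells. This split was not particular to NK cell markers. For B cell markers it was 10 of 10, 9 of 10 and 10 of 10 in the same groups, and for macrophage markers 14 of 14, 7 of 14 and 7 of 14. Markers of mast cells and basophils gave 7 of 8, 5 of 8 and 7 of 8, and Treg cell markers 3 of 7, 0 of 7 and 1 of 7. Ncr1, the NK cell receptor NKp46, read 235 and 38.7 in DKO and 20.5 and 28.1 in WT unstimulated cells, and in stimulated cells it read 38.2 and 41 in WT and 92.1 and 8.44 in DKO. Klrb1c, another NK cell receptor gene, read 0 in DKO stimulated replicate 2, which allows up to 2.53 normalized counts (3 reads). The search for genes with the nearest pattern left out symbols that start with Gm or end in Rik and covered 12428 other tested genes. The 2 whose centred log2 levels over the 8 libraries were nearest to those of Gzma were Klrc1 and Klrd1. These are the subunits of an NK cell receptor, and their root mean square differences were 0.375 and 0.4. Both of these genes were on the list of NK cell markers. The same 3 libraries had the largest sums of the CD8 T cell genes Cd8a and Cd8b1, at 615 in DKO stimulated replicate 1, 428 in DKO unstimulated replicate 1 and 309 in WT stimulated replicate 1, against 147 to 270 in the other 5. Within groups Gzmb was also higher in replicate 1 than in replicate 2, at 156 and 115 in DKO unstimulated, 2701 and 1666 in WT stimulated and 2491 and 450 in DKO stimulated cells, although across groups it was low, at 156, in the library with the largest sum of NK cell markers. Stx11 was lowest, at 142, in that library. Nkg7 was higher in replicate 1 of both DKO groups, at 149 and 22.7 in unstimulated and 319 and 54.9 in stimulated cells, but read 371 and 336 in WT stimulated cells. Prf1 was highest, at 78.6, in the library with the largest sum of NK cell markers. In DKO stimulated cells it read 47.6 and 42.2, where these sums were 809 and 106. What part NK cells or CD8 T cells had in the values of Gzma, Prf1, Gzmb and Nkg7 was not tested.

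**Figure D2:**
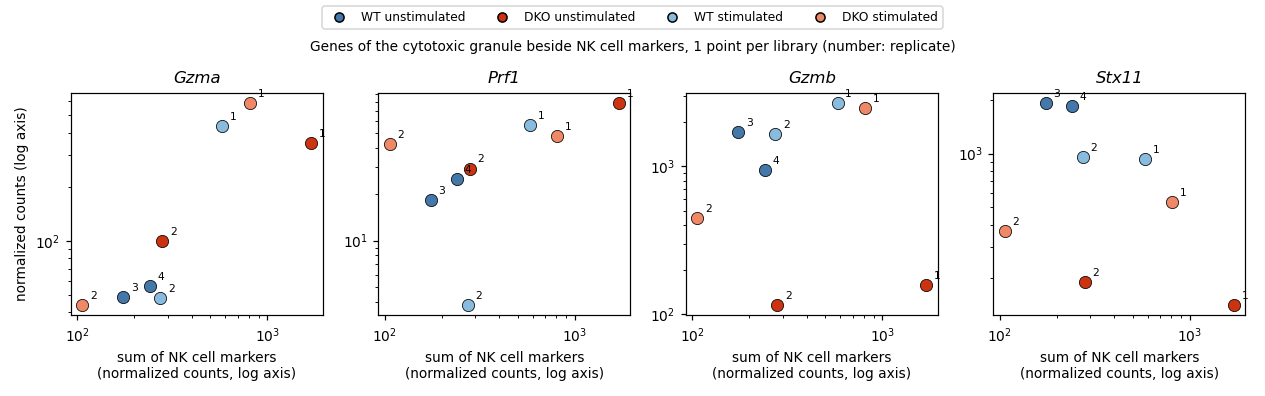
Normalized counts (y axis, log) of Gzma, Prf1, Gzmb and Stx11 against the sum of 12 NK cell markers (x axis, log), with 1 point per library, coloured by group and numbered by replicate. The 3 libraries with the largest NK cell sums, 581 to 1709, had the 3 highest values of Gzma, 351 to 588, whereas Stx11 was lowest, at 142, in the library with the largest sum.

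The sequence before the start of transcription is shown for Gzma, which was highest in the libraries with the largest NK cell sums. It is also shown for Gzmb and Fgl2, which had the lowest fold changes in DKO unstimulated cells beside Stx11. Each is the 250 bases upstream of the start in RefSeq's annotation of GRCm38.p6, read 5′ to 3′ on the gene's strand, and 5 of the 8 genes had such a sequence wholly outside the annotated gene. For Stx11 and Prf1 the tabulated window overlapped the gene by 239 and 85 bases, and it is not shown. Capitals mark matches on either strand to the core of NFAT (TGGAAA), AP-1 (TGANTCA), RUNX (TGTGGT), STAT (TTCNNNGAA) or BLIMP-1 (AGNGAAAG) motifs.
Gzmb, chr14:56262335-56262584, minus strand: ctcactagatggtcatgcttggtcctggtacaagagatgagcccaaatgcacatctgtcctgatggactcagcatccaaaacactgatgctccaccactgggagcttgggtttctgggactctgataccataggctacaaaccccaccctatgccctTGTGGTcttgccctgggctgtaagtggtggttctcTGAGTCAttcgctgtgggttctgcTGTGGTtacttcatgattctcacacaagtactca
Fgl2, chr5:21372423-21372672, plus strand: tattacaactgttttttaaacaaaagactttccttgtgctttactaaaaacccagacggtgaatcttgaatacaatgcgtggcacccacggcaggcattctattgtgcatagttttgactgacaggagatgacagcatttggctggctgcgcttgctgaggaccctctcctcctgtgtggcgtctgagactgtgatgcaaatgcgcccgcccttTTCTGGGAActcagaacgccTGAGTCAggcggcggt
Gzma, chr13:113100982-113101231, minus strand: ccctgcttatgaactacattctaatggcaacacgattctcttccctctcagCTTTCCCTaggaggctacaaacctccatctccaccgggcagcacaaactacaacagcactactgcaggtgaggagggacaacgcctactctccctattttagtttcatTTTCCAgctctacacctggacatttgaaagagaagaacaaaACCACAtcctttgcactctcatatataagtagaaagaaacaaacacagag
Positions are counted from the start, with -1 as the last base shown. The Gzmb sequence held an AP-1 match at -58 to -52, in the gene's direction, and RUNX matches at -93 to -88 and at -34 to -29. Fgl2 held an AP-1 match at -16 to -10 and a STAT match at -36 to -28. Gzma held, on the opposite strand, matches to NFAT at -91 to -86, RUNX at -50 to -45 and BLIMP-1 at -199 to -192. No matches in these 3 sequences overlapped each other. The motifs are short and common: of 32851 windows of 250 bases upstream of RefSeq starts, 18.6% held the NFAT letters, 14.0% RUNX, 7.3% BLIMP-1, 7.02% STAT and 6.75% AP-1. A match describes the letters and is not a site known to be bound in these cells.

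Srgn encodes serglycin, on which granzymes and perforin are stored. It read 6884 and 6963 normalized counts in WT unstimulated cells and 2209 and 4800 in DKO unstimulated cells. Both DKO values were below the narrow WT range. The log2 fold change of -1.09 ± 0.32 (SE, n = 2 per group) was not called by limma (adjusted p = 0.0865) and was called by DESeq2 (adjusted p = 0.0367). It rested on the replicates unequally, at -0.53 without DKO unstimulated replicate 1 and -1.65 without replicate 2, where limma called it (adjusted p = 0.00658). Ctsw, which encodes the cathepsin-like protease lymphopain of T and NK cells, read 357 and 292 in WT and 511 and 465 in DKO unstimulated cells. The 2 groups did not overlap, and the log2 fold change of 0.59 ± 0.33 was not called (limma, adjusted p = 0.328).

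Stx11, which encodes the syntaxin needed for the fusion of granules with the plasma membrane in NK and T cells, had the largest fold change of the 8 genes. It read 1925 and 1851 normalized counts in WT unstimulated cells and 142 and 191 in DKO unstimulated cells. The replicates agreed closely in both groups and the groups were far apart. The log2 fold change was -3.51 ± 0.24 (SE, n = 2 per group), or 11.4-fold lower, with a limma adjusted p of 0.0002. Stx11 was called lower in every alternative fit, with a largest adjusted p of 0.0158 (limma) when a library was left out, and its log2 fold change was -3.30 without DKO unstimulated replicate 1. The genes whose levels over the 8 libraries were nearest to Stx11 were Rhod, a small GTPase, and Lamc1, a laminin chain, with root mean square differences of 0.276 and 0.389 on the log2 scale. Rhod was at 43.2 and 54.7 in WT and 2.1 and 5.34 in DKO unstimulated cells, the DKO values standing for 2 and 4 reads. For Gzmb the nearest genes were Zbtb32, a zinc finger repressor, at 0.305, and Actr3b, at 0.471.

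Nkg7 encodes a membrane protein of cytotoxic granules that takes part in their release. It read 130 and 126 normalized counts in WT unstimulated cells and 149 and 22.7 in DKO unstimulated cells. The DKO replicates lay on either side of the WT values. The log2 fold change of -1.11 ± 0.86 (SE, n = 2 per group) was not called (limma, adjusted p = 0.491), and its sign depended on 1 library, at -2.44 without DKO unstimulated replicate 1 and 0.22 without replicate 2. Fgl2, the fibrinogen-like protein secreted by Treg cells, read 468 and 456 in WT and 252 and 102 in DKO unstimulated cells. All DKO values were below all WT values, and the log2 fold change was -1.53 ± 0.39. It missed the limma threshold (adjusted p = 0.0563) and passed that of DESeq2 (adjusted p = 0.0108), and without DKO unstimulated replicate 1 it was -2.18 with a limma adjusted p of 0.00756. The 2 genes nearest to Fgl2 were Crybg3 and Fam92a, at root mean square differences of 0.163 and 0.176. Nearest to Srgn were Rab8b and Zbtb1 (0.141 and 0.146), to Ctsw Unc13a and Ms4a6b (0.164 and 0.165), to Prf1 Galnt16 and Adgrg3 (0.358 and 0.395) and to Nkg7 S1pr3 and Gkap1 (0.407 and 0.421). The measure is a description over 8 libraries that share groups and size factors.

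**Figure D3:**
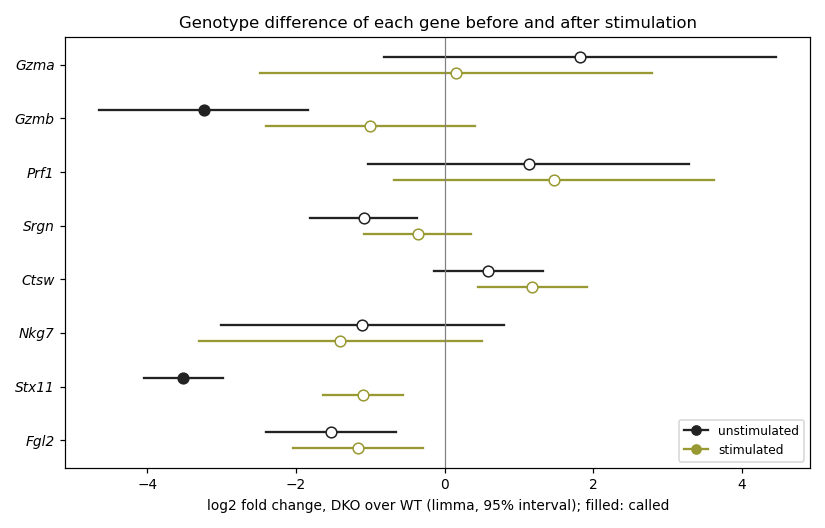
Log2 fold change of DKO over WT (x axis) for each gene (y axis) in unstimulated and stimulated cells, with the 95% interval of the limma fit as a line and filled points for called genes. Stx11 and Gzmb in unstimulated cells, at -3.51 and -3.24, are the 2 called values, and the intervals of Gzma, Prf1 and Nkg7 all include 0.

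After 16 h of stimulation, limma called 0 of the 8 genes in either direction, with 0.11% of all tested genes called lower and 0.162% higher. Without adjustment, limma p was under 0.05 for Stx11 and Fgl2, both lower, and for Ctsw, which was higher. Here too the share of all tested genes under this unadjusted threshold was not counted. Both DKO libraries were below both WT libraries for 3 genes (23.1% of all tested genes) and above for 1 (24.3%). For edgeR the count was also 0, with 0.0% of all genes lower and 0.00649% higher, and DESeq2 called Stx11 lower and Ctsw higher, with 1.86% and 1.54% of all genes. With the replicate number as a block, limma called Stx11 (adjusted p = 0.037) and Fgl2 (adjusted p = 0.0462) lower, with 1.31% of all genes lower and 1.24% higher, though the labels do not say that equal numbers mark a shared pool. Stx11 read 935 and 959 in WT and 533 and 368 in DKO stimulated cells, without overlap, which gave -1.09 ± 0.24 on the log2 scale (limma, adjusted p = 0.0832). Fgl2 read 676 and 649 in WT and 381 and 228 in DKO, also without overlap, at -1.17 ± 0.39 (limma, adjusted p = 0.21). Ctsw read 208 and 266 in WT and 370 and 772 in DKO stimulated cells, at 1.18 ± 0.33 (limma, adjusted p = 0.146). The DKO values were both above WT and differed from each other by more than the WT values did. Gzmb read 2701 and 1666 in WT and 2491 and 450 in DKO stimulated cells, so that one DKO library lay within the WT range and the other below it. Its log2 fold change of -1.0 ± 0.63 (limma, adjusted p = 0.539) was 0.23 without DKO stimulated replicate 2, and without replicate 1 it was -2.23 and called (adjusted p = 0.0199). Nkg7 was also uneven between the DKO replicates, at 371 and 336 in WT and 319 and 54.9 in DKO without overlap, which gave -1.41 ± 0.86 (limma, adjusted p = 0.522). Srgn read 5357 and 4819 in WT and 4917 and 3191 in DKO, and Prf1 read 56.1 and 3.8 in WT and 47.6 and 42.2 in DKO, where 3.8 stands for 5 reads.

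The question whether stimulation altered the genotype difference was put to the interaction term. For Stx11 the difference between DKO and WT was 2.42 ± 0.34 smaller on the log2 scale after stimulation, and for Gzmb 2.24 ± 0.89, with unadjusted p of 3.11e-05 and 0.0309 from limma. Neither passed the correction over all genes (adjusted p of 0.16 and 0.572), and limma and edgeR each called 0 of the 8 genes and 0.0% of all genes in both directions. DESeq2 called Stx11 (adjusted p = 1.53e-06) beside 0.221% of all genes in that direction and 0.0843% in the other. Without DKO unstimulated replicate 2, limma called Stx11 (adjusted p = 0.012).

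Between unstimulated and stimulated libraries, which also differed in lane number, Stx11 changed in opposite directions in the 2 genotypes. In WT cells Stx11 fell by 0.99 ± 0.24 on the log2 scale (limma, adjusted p = 0.016), from 1925 and 1851 to 935 and 959 normalized counts. It was the only one of the 8 genes called in WT, where 13.1% of all genes were called lower and 10.2% higher, and edgeR and DESeq2 called it alone too, with 12.4% and 14.6% of all genes lower and 9.91% and 10.8% higher. Both stimulated WT libraries were below both unstimulated ones for 3 of the 8 genes (36.0% of all tested genes) and above for 2 (35.0%). With libraries scaled to equal totals, which raises the median log2 fold change of all genes by 0.51, the fall of Stx11 was 0.47 and was not called, and it was also lost without either library of WT unstimulated or WT stimulated cells (adjusted p of 0.0922 to 0.104, limma). In DKO cells Stx11 rose by 1.42 ± 0.24 (limma, adjusted p = 0.00311), from 142 and 191 to 533 and 368. Gzmb rose in DKO cells by 2.97 ± 0.63 (limma, adjusted p = 0.00841), or 7.85-fold, from 156 and 115 to 2491 and 450. Without DKO stimulated replicate 1, where the NK cell markers summed to 809 and the CD8 genes to 615 against 106 and 236 in replicate 2, the rise was 1.74 (limma, adjusted p = 0.0227). In WT cells Gzmb moved from 1714 and 950 to 2701 and 1666, with overlapping groups, by 0.73 ± 0.63 (limma, adjusted p = 0.43). These 2 genes were the ones called in DKO, both higher, against 13.0% of all genes higher and 12.0% lower, and edgeR and DESeq2 called the same 2, with 12.2% and 13.1% of all genes higher and 12.1% and 14.1% lower. With the replicate block, limma called Nkg7 higher too (adjusted p = 0.0423), with 12.1% of all genes higher and 14.4% lower. Before adjustment, p was also under 0.05 for Fgl2 in DKO, at 0.88 ± 0.39. Both stimulated libraries were above both unstimulated libraries for Gzmb and Stx11 in DKO (30.8% of all tested genes) and below for 0 (30.6%). With each library left out in turn, Gzmb and Stx11 were called in DKO each time, by 1.74 to 4.21 and 1.16 to 1.69. The WT and DKO comparisons of one stimulation state and the stimulation comparisons of one genotype share libraries and are not independent of each other.

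**Figure D4:**
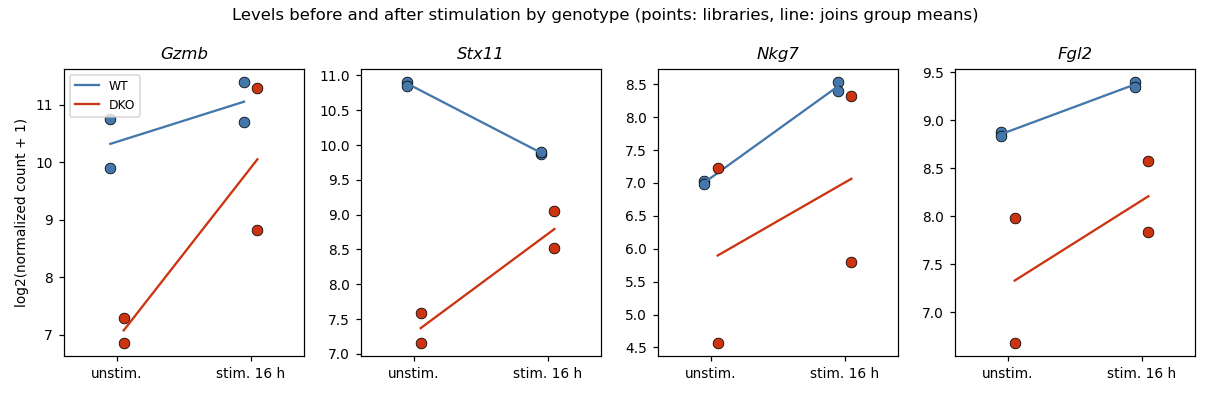
Log2(normalized count + 1) (y axis) of Gzmb, Stx11, Nkg7 and Fgl2 before and after stimulation (x axis), with 1 point per library, WT in blue and DKO in red, and lines joining group means. Stx11 fell by 0.99 in WT and rose by 1.42 in DKO cells, and Gzmb rose by 2.97 in DKO cells.

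The remaining 6 genes were not called after stimulation in either genotype. Nkg7 read 371 and 336 in WT stimulated against 130 and 126 in unstimulated cells, without overlap, at 1.46 ± 0.86 (limma, adjusted p = 0.241). In DKO cells, at 319 and 54.9 against 149 and 22.7, the groups overlapped. Fgl2 in WT cells moved from 468 and 456 to 676 and 649, again without overlap, at 0.52 ± 0.39 (limma, adjusted p = 0.365). Srgn went from 6884 and 6963 to 5357 and 4819 in WT, at -0.45 ± 0.32, and Ctsw from 357 and 292 to 208 and 266, at -0.46 ± 0.33, both with an adjusted p above 0.3 (limma). With equal totals these values were 0.07 and 0.06. Gzma and Prf1 had standard errors of 1.19 and 0.97 in each comparison of 2 groups and of 1.68 and 1.37 for the interaction, and no change in them was detectable against this spread.

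Other genes of the granule pathway were examined as lists. The calls in each list compare with these shares of all tested genes called by limma. For genotype, 3.35% were lower and 1.38% higher in unstimulated cells, and 0.11% and 0.162% in stimulated cells. With stimulation, 13.1% were lower and 10.2% higher in WT, and 12.0% and 13.0% in DKO. Of 8 further granzymes, Gzmc alone was expressed highly enough to be tested: it read 34.5 and 14.8 normalized counts in WT and 5.24 and 4.01 in DKO unstimulated cells and was not called (limma, log2 fold change -2.08 ± 1.07, adjusted p = 0.283). Gzmk read 4.01 to 19.9 and Gzmm 11.8 to 18.7 in unstimulated libraries, and Gzmg and Gzmn were at 0 in all 8, which allows up to 2.28 to 4.43 normalized counts per library (3 reads, counting error only).

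Among 10 tested genes that process or inhibit granzymes, limma called 2 lower and 0 higher in DKO unstimulated cells. Cst7, which encodes cystatin F, an inhibitor of the cathepsins that activate granzymes, read 575 and 607 in WT and 150 and 62.8 in DKO, at -2.59 ± 0.61 (adjusted p = 0.0427). M6pr, the mannose 6-phosphate receptor that brings granzymes to the granule, read 2560 and 2263 against 1243 and 1141, at -1.01 ± 0.20 (adjusted p = 0.0225). The list's median was -0.07. After stimulation, Serpinb9, the inhibitor of granzyme B, was called higher in both genotypes, by 1.07 ± 0.32 in WT (adjusted p = 0.0361) and 2.14 ± 0.32 in DKO (adjusted p = 0.00175, both limma). It reached 930 and 645 normalized counts in WT and 1985 and 1025 in DKO stimulated cells, from 283 to 394 in the unstimulated libraries. Serpinb6b was called higher in DKO (1.24 ± 0.32, limma, adjusted p = 0.0196), and Ctsl and Igf2r, a cathepsin and the second mannose 6-phosphate receptor, were called lower in both genotypes.

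Of 22 tested genes of granule trafficking and exocytosis, 0 were called lower in DKO unstimulated cells and 1, Lyst, was called higher. Lyst, which governs the size of lysosome-related granules, read 1436 and 1706 in WT and 3918 and 3157 in DKO, at 1.17 ± 0.19 (limma, adjusted p = 0.014). The other fusion and docking genes that Stx11 works with were not called: Stxbp2, the binding partner of syntaxin 11, was at -0.27 ± 0.23, Unc13d at -0.06 ± 0.30 and Rab27a at -0.71 ± 0.19 (limma, adjusted p of 0.529, 0.932 and 0.0683). The lowest fold change of the 22 was that of Vamp8, at -1.06 ± 0.33, also not called (limma, adjusted p = 0.0958). Vamp8 read 414 and 230 in WT and 163 and 135 in DKO unstimulated cells. The list's median of -0.27 compares with -0.01 for all tested genes. Stimulation brought 5 calls in WT, all lower, the 4 largest being Sytl2 at -2.65, Vamp2 at -1.28, Sytl3 at -1.25 and Stx4a at -0.80, and in DKO 2 lower (Vamp2 at -1.64 and Sytl2 at -1.63) and 2 higher (Lamp1 at 0.82 and Snap23 at 0.78).

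The list of transcription factors of cytotoxic cells had 4 of 10 tested genes called lower in DKO unstimulated cells and 0 higher, with a median of -1.02. Called or not, 7 of the 10 were lower and 3 higher. The 3 higher ones were Eomes at 0.84 ± 0.65, Zeb2 at 1.04 ± 0.72 and Stat4 at 0.17 ± 0.22 (limma, adjusted p of 0.493, 0.435 and 0.687). Prdm1, which encodes BLIMP-1, read 2050 and 1637 in WT and 382 and 196 in DKO, at -2.74 ± 0.33 (limma, adjusted p = 0.00538). Batf, an AP-1 family factor, was at -2.07 ± 0.27, its partner Irf4 at -1.90 ± 0.27 and Hopx at -1.34 ± 0.27. Lower Prdm1, Batf and Irf4 had already been reported by the study from these same data. Tbx21, which encodes T-bet, read 39.9 and 42.8 in WT and 34.6 and 6.68 in DKO and was not called (-1.36 ± 0.63, limma, adjusted p = 0.238). In stimulated cells Batf was the 1 gene of the list called lower, at -1.76 ± 0.27 (limma, adjusted p = 0.0392), with 1379 and 1186 in WT and 464 and 305 in DKO. Irf4 and Tbx21 were called higher after stimulation in both genotypes, Irf4 by 1.79 in WT and 3.32 in DKO and Tbx21 by 3.55 and 4.18. Prdm1 and Batf were called higher after stimulation in DKO, by 1.1 and 0.98.

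The list of 9 death ligands, cytokines and chemokines of cytotoxic cells had 0 calls for genotype in either state, with medians of 0.06 and 0.09. At the same time 4 of them were called higher with stimulation in WT and 6 in DKO. Ccl4, a chemokine of activated lymphocytes, was called higher in both genotypes. It read 1.08 and 0 normalized counts in WT unstimulated cells, both below the value of 3 reads, and 422 and 121 after stimulation, so its fold in WT depends on the pseudocount and is not given, and in DKO it read 21 and 5.34 before and 661 and 108 after. Ccl3 rose by 5.32 in WT and 3.39 in DKO, Lta by 3.17 and 2.91 and Tnf by 1.95 and 1.52. Ifng was called in DKO, by 2.99 ± 0.90 (limma, adjusted p = 0.035), and Xcl1 by 3.79 ± 1.01 (limma, adjusted p = 0.0215). Ifng, Ccl3, Ccl4 and Xcl1, like Gzma, were uneven between stimulated replicates, with replicate 1 the higher in both genotypes. Ifng read 899 and 322 in WT and 1201 and 198 in DKO. Ccl3 read 917 and 264 in WT and 1189 and 287 in DKO, and Xcl1 387 and 47.8 in WT and 795 and 155 in DKO. Lta read 2019 and 2266 in WT and 1999 and 1706 in DKO, and Tnf 970 and 1012 in WT and 1076 and 936 in DKO. What part NK cells or CD8 T cells had in these values was not tested.

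Of 12 tested genes for other suppressive functions of Treg cells, 8 were called lower in DKO unstimulated cells and 0 higher, with a median of -2.73. The 4 largest were Klrg1, an inhibitory receptor of effector cells, at -5.06 ± 1.01, the IL-33 receptor gene Il1rl1 at -4.34 ± 0.77, Il10 at -4.06 ± 0.36 and Tigit at -3.61 ± 0.68. Il10 read 885 and 923 normalized counts in WT and 50.3 and 56.1 in DKO. In stimulated cells 1 of the 12 was called lower, again Il10 (-2.34 ± 0.36, limma, adjusted p = 0.0392). Ctla4, also a marker of Treg cells, read 37403 and 35119 in WT and 6338 and 17333 in DKO unstimulated cells and was called lower at -1.79 ± 0.37 (limma, adjusted p = 0.0271). The study had already reported many genes of this list as lower in these same data, among them Klrg1, Il1rl1, Il10, Tigit and Ctla4. The list is therefore not an independent comparison for the 8 genes.

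**Figure D5:**
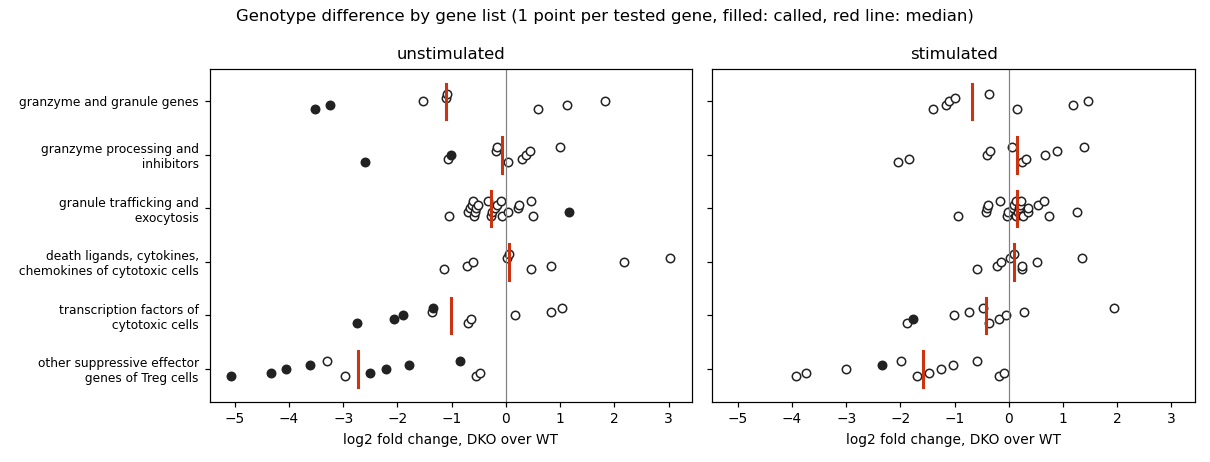
Log2 fold change of DKO over WT (x axis) in unstimulated and stimulated cells for the 8 granzyme and granule genes and 5 lists (y axis), with 1 point per tested gene, filled where called, and a red line at the median. In unstimulated cells the medians were -1.1 for the 8 genes, -0.27 for trafficking and -2.73 for other suppressive effector genes. Many of these suppressive effector genes had already been reported by the study as lower in these data.

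Markers of other cells moved with some of these groups. In DKO unstimulated cells, 13 of 14 macrophage markers, 8 of 12 NK cell markers and 6 of 10 B cell markers were above both WT libraries in both DKO libraries, and in DKO replicate 1 B cell markers summed to 14718 normalized counts, against 2472 to 6772 in the other libraries. The Treg cell markers were below both WT values for 6 of 7 genes, and their sum was 40591 and 48769 in DKO against 93568 and 87137 in WT. The largest terms in WT were Ctla4, at 37403 and 35119 against 6338 and 17333 in DKO, and Ikzf2, at 18953 and 19707 against 8398 and 9233. Foxp3, Il2ra and Tnfrsf18 were lower too. The T cell genes of the list moved less: Cd3e read 3424 and 3294 in WT and 3042 and 3156 in DKO. Cd4 overlapped, at 10760 and 8918 in WT and 10363 and 7005 in DKO. In stimulated cells the macrophage sums were 251 to 492 over all 4 libraries. The sums of the 2 CD8 genes Cd8a and Cd8b1 were 147 to 615 over the 8 libraries, and those of plasmacytoid dendritic cells and of mast cells and basophils were 1083 to 2095 and 131 to 347. The part of these cells in the values of the 8 genes was not tested. Without DKO unstimulated replicate 1, the log2 fold changes in unstimulated cells were -3.30 for Stx11, -3.46 for Gzmb and -2.18 for Fgl2, against 1 remaining DKO library in which the macrophage markers summed to 1910.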

How the data were processed

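Treg cell RNA was sequenced in 8 libraries, with 2 in each of the 4 labelled groups. The methods name NCBIM37, Bowtie, removal of PCR duplicates with Picard, HTSeq and DESeq2, whereas the submitters' processing notes name mm10, bcl2fastq 1.8.4, STAR 2.7 and DESeq2, so the build and annotation behind the counts are not settled here. Whether counting used the strand is not given in the sources used here. The deposited values are a signal: the authors scaled each library's gene counts by its own size factor. All values (100.0%) were whole multiples of 1 read within 0.05 reads, and recovered reads totalled 11851853 to 16306540 per library.

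Values were fitted as log2(value + 1) in R 4.3.3 with limma 3.58.1, using lmFit and a trended eBayes and keeping the 4 groups in 1 model. The filter was a mean normalized count of 10, which left 15419 genes. Tests were two-sided, and p-values were adjusted by Benjamini and Hochberg over these genes within each comparison. A call required more than 1.5-fold and an adjusted p below 0.05. The comparisons were genotype in each stimulation state, stimulation in each genotype, and the interaction. Fold changes are on the log2(value + 1) scale, which understates those of low genes. The fits were tested on simulated data.

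On recovered reads, DESeq2 1.42.0 and the quasi-likelihood test of edgeR 4.0.16 were run as alternatives. Others were pseudocounts of 0.1 and 5, no filter or a mean of 100, equal totals or upper quartiles, a fit to 4 libraries, a replicate block, a 2-fold threshold and each library left out. All 8 granule genes are reported. From 6 lists of related genes, those called are named (the 4 largest where more than 4 were), with further genes where a count of 5 or fewer needed them. Gzmk, Gzmm, Rab27a, Stxbp2, Unc13d, Vamp8, Tbx21, Ncr1, Klrb1c, Ikzf2, Il2ra, Tnfrsf18, Cd3e and Cd4 were named after their values were seen. The 2 genes nearest to a granule gene are those with the smallest root mean square difference of centred log2 values. Genes, lists and rules were chosen with earlier results of these data known. Symbols were matched to RefSeq for GRCm38.p6 (66.9% of 52459) and to GENCODE vM1 (54.9%, for exon lengths).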

Additional observations from a re-analysis of the deposited data

Results flagged for a closer look

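Stx11 changed in opposite directions with stimulation in the 2 genotypes: every WT stimulated library was below every WT unstimulated library and every DKO stimulated library was above every DKO unstimulated library. The log2 fold change was -0.99 in WT and 1.42 in DKO cells (limma). The difference itself, tested as the interaction, was 2.42 ± 0.34 and missed the threshold with limma (adjusted p = 0.16) and edgeR (adjusted p = 0.126), while DESeq2 called it (adjusted p = 1.53e-06). Over all alternatives that kept every library the adjusted p ranged up to 0.397, and with 1 library left out from 0.012 to 0.999. With libraries scaled to equal totals the WT value was -0.47 and was not called.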

How the results depend on the processing

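With 2 libraries per group, each value rests on few samples, and counts near the threshold moved with the setting. The cause of these moves was not tested. Stx11 was called lower in DKO unstimulated cells under every alternative, and Gzmb and Stx11 higher with stimulation in DKO under every alternative. The number of the 8 genes called lower in DKO unstimulated cells was 2 in the main analysis, 1 with every gene above 0 and 4 with DESeq2. Over all genes these settings called 517, 268 and 810 lower. With a library left out, the log2 fold changes were -3.67 to -2.82 for Gzmb and -3.73 to -3.30 for Stx11. In stimulated cells DESeq2 called 1 lower and 1 higher instead of 0 and 0. Over all genes it called 287 lower and 238 higher instead of 17 and 25. With a library left out, the log2 fold changes there were -2.23 to 0.23 for Gzmb, -1.36 to -0.83 for Stx11 and 0.65 to 1.71 for Ctsw. For the interaction DESeq2 called 1 higher, among 34 higher and 13 lower of all genes. With stimulation in WT, 1 was lower in the main analysis, 0 with equal totals and 0 at more than 2-fold, among 2013, 975 and 1508 lower of all genes. A fit to the 4 libraries alone called 1 higher (Nkg7), among 2319 higher of all genes. With stimulation in DKO, leaving out a library gave 1.74 to 4.21 for Gzmb and 1.16 to 1.69 for Stx11 on the log2 scale. Chosen after seeing the data, a fit without the 3 libraries numbered 1, in which the NK cell markers were highest, left 1 library in 3 of the groups. Its spread comes from the 2 WT unstimulated libraries alone, and the lone libraries are assumed to vary like them. Its calls are therefore not given. For genotype, its log2 fold changes were -3.46 for Gzmb and -3.30 for Stx11 in unstimulated cells, and -1.89 and -1.38 in stimulated cells. With stimulation in DKO they were 1.96 for Gzmb and 0.94 for Stx11.

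Direction changed for genes that were not called. Without the 3 libraries numbered 1, the log2 fold change of Gzma became -0.12 for genotype in stimulated cells and -0.12 for stimulation in WT, that of Srgn -0.066 for the interaction and -0.59 for stimulation in DKO, and that of Prf1 0.51 for stimulation in DKO. Prf1 became -0.76 (edgeR) and -0.75 (DESeq2) for the interaction, and 0.47 (edgeR), 0.46 (DESeq2) and 0.042 (equal totals) for stimulation in WT. With equal totals, stimulation in WT gave 0.074 for Srgn and 0.061 for Ctsw, and stimulation in DKO 0.17 for Gzma and 0.28 for Prf1. Gzma for stimulation in DKO became 0.46 (edgeR) and 0.47 (DESeq2). Leaving out a library turned the sign within these ranges: Nkg7 for genotype in unstimulated cells from -2.44 to 0.22; for genotype in stimulated cells Gzma from -1.7 to 2.01, Gzmb from -2.23 to 0.23 and Prf1 from -0.32 to 3.26; for the interaction Gzma from -3.53 to 0.19, Prf1 from -1.45 to 2.13, Nkg7 from -1.63 to 1.03 and Fgl2 from -0.29 to 1.01; for stimulation in WT Gzma from -0.12 to 3.03 and Prf1 from -2.23 to 1.35; and for stimulation in DKO Gzma from -2.07 to 1.64, Prf1 from -0.80 to 0.59, Srgn from -0.28 to 0.84, Ctsw from -0.40 to 0.66 and Nkg7 from -0.16 to 2.50.

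The labels do not say that equal replicate numbers mark a shared pool, and the WT unstimulated libraries carry other numbers. Deviations of libraries numbered 1 and 2 from their group means correlated over 15419 genes at 0.167 between WT and DKO stimulated, 0.257 between DKO unstimulated and DKO stimulated and 0.114 between DKO unstimulated and WT stimulated cells. With a replicate block, 2 genes (Fgl2 and Stx11) were called lower in DKO stimulated cells instead of 0, among 202 lower and 191 higher of all genes, and 3 (Gzmb, Nkg7 and Stx11) higher with stimulation in DKO, among 2224 lower and 1870 higher of all genes. Over all genes, calls in unstimulated cells were 517 lower and 213 higher and ranged over the alternatives with all or 4 libraries from 255 to 810 and from 83 to 511, and with a library left out from 8 to 924 and from 0 to 374. In stimulated cells 17 and 25 became 0 to 287 and 1 to 238, and 0 to 551 and 0 to 211. With stimulation in WT 2013 lower and 1580 higher became 975 and 4261 with equal totals, and in DKO 1855 and 1997 became 1077 and 3792. The share of calls that were lower was 70.8% in unstimulated cells and 59.4% or 53.7% with equal totals or upper quartiles, which shifted the median of all genes by 0.118 and 0.16.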
